A study of Mus musculus with 2 samples.

Results

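Transcripts of the MYC and MAX network were profiled, by bulk RNA sequencing, in 2 rhabdoid tumors (RT) of Dppa3-cre::Smarcb1 Fl/+ mice. The network was taken as 10 genes out of 55416 in the count table, chosen by name but with earlier results of these data known. All 10 had reads in both libraries: Myc, Mycn, Mycl, Max, Mxd1, Mxd3, Mxd4, Mxi1, Mnt and Mga. Both mice carried Cre recombinase knocked into the Dppa3 gene, which is active in primordial germ cells (PGCs), and 1 floxed Smarcb1 allele on a C57BL/6 background. The series' design text names an fl/fl strain as the parent of the cross, and the Fl/+ genotype of the tumor mice was taken from the study's account. Smarcb1 encodes a SWI/SNF subunit, and this complex moves nucleosomes. The first tumor was labelled intracranial, at the trigeminal nerve, and the second extracranial, in the facial maxillary region, and the submitters classified both as MYC. Each location was thus 1 library from 1 tumor, no normal tissue was sequenced beside them, and the ages of these mice were not given in the sources used here. Whole tumor pieces were used, so neighboring tissue and immune cells contributed reads, and fewer cells of a type cannot be told apart from less RNA per cell.

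The libraries held 34545846 (intracranial) and 26915696 (extracranial) counts. Levels are given as CPM, that is counts divided by library size in the usual unit, where library sizes had been adjusted by TMM factors. Every interval below is an exact 95% interval of counting error only, since no replicate existed, so differences are between the 2 libraries and not between locations. Smarcb1 itself had 365 counts, or 10.5 CPM (9.45 to 11.6), in the intracranial library and 530 counts, or 19.8 CPM (18.2 to 21.6), in the extracranial library. These counts are RNA of the whole tumor piece. By staining, the study reported that Smarcb1 protein was lost in an intracranial and an extracranial tumor of this model. The part of neighboring cells in the Smarcb1 counts was not tested. Markers of other cell types differed widely: 10 keratinocyte genes summed to 20474 and 5.72 CPM, 10 macrophage genes to 5874 and 13176 CPM, 10 T and B cell genes to 26.9 and 352 CPM, 10 endothelial genes to 237 and 407 CPM, 10 neuron genes to 90.3 and 141 CPM, and 10 Schwann cell genes to 246 and 253 CPM. Because of this unequal tissue content, the words intracranial and extracranial stand here for the labels of the libraries.

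MYC proteins are basic helix-loop-helix leucine zipper transcription factors that bind DNA only as dimers with MAX. MYC-MAX dimers bind the E-box and activate genes of growth, ribosome assembly and metabolism. MXD proteins, MNT and MGA also pair with MAX at E-boxes but mostly repress transcription, the MXD proteins and MNT through SIN3 corepressors and MGA within a Polycomb complex that silences germline genes. A methylation subgroup of rhabdoid tumors is named after the MYC oncogene, and SMARCB1 is known to bind MYC.

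The canonical E-box, CACGTG, reads the same on both strands. It was searched in promoter windows of RefSeq (build GRCm38.p6) that run from 250 bases before to 50 bases after the gene start. Windows were found for 9 members, and Myc had no entry. Of these 9, 3 held the motif (33.3%), against 8.09% of 27025 genes with a window. These 3 genes, Max, Mxd4 and Mnt, encode the shared partner and 2 of its repressor partners, and each is shown here as 30 bases in the direction of transcription with the E-box in capitals.
Max (chr12:76962234-76962263, minus strand, 3 bases before the gene start): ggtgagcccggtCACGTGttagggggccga
Mxd4 (chr5:34187912-34187941, minus strand, 219 bases before): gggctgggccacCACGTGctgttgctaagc
Mnt (chr11:74830789-74830818, plus strand, 123 bases before): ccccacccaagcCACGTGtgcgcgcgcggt
In the windows of Mycn, Mycl, Mxd1, Mxd3, Mxi1 and Mga these letters were not found. The 3 genes with the motif had log2 ratios extracranial over intracranial of 0.17 to 0.42, which is a description of 3 genes. Beyond the windows nothing was searched. A share above 8.09% was not particular to the members, and the shares of the related gene lists are given under other observations. The genes with a window were not matched to the members for base composition, so enrichment of the motif in the network was not tested.

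Among the activators, the first question was which MYC paralog was transcribed. Myc (ENSMUSG00000022346, chromosome 15) carried most MYC family reads, Mycl a small part and Mycn almost none. Myc had 1741 counts in the intracranial library and 1180 in the extracranial library. This was 50.1 CPM (47.8 to 52.5) and 44.1 CPM (41.6 to 46.7), so the levels were close but their intervals did not overlap. The extracranial level was 0.880 times the intracranial one (0.817 to 0.948). Per kilobase of exon the Myc level reached percentile 86.7 and 84.7 of the 16543 protein-coding genes that exceeded 3 counts in at least 1 tumor.

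Mycl (ENSMUSG00000028654, chromosome 4), a paralog known from small cell lung cancer and from dendritic cells, had 263 and 81 counts. Its level was 7.57 CPM (6.68 to 8.54) in the intracranial library and 3.03 CPM (2.40 to 3.76) in the extracranial library. Mycl was therefore 2.50-fold lower in the latter (1.94 to 3.25), the largest decrease among members with an interval that left out an equal level. The 10 dendritic cell markers went the other way, from 30.9 to 86.1 CPM in sum, with 8 higher and 1 lower in the extracranial library. Mycn (ENSMUSG00000037169, chromosome 12), the paralog of neural progenitors and neuroblastoma, had 10 and 4 counts, or 0.288 CPM (0.138 to 0.529) and 0.149 CPM (0.0407 to 0.383). At this depth a difference in Mycn could not be detected, since its log2 ratio of -0.95 had an interval of -3.07 to 0.85.

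Max (ENSMUSG00000059436, chromosome 12), the obligate partner of all other members, had almost the same number of reads in both libraries, 1949 and 1947 counts. Scaled to library size, its level was 56.1 CPM (53.6 to 58.6) in the intracranial library and 72.8 CPM (69.6 to 76.1) in the extracranial library. Max was thus 1.30-fold higher in the latter (1.22 to 1.38). The balance of Max and Myc differed as well. Max per kilobase stood at 0.845 times Myc (0.792 to 0.902) in the intracranial library and at 1.25 times Myc (1.16 to 1.34) in the extracranial library. The change in this balance, an odds ratio into which no scaling enters, was 1.47 (1.34 to 1.63). Per kilobase of the longest coding transcript, in place of all exon bases, the ratios were 1.35 and 1.99, so which of the pair stood higher in the intracranial library depended on the length used.

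**Figure D1:**
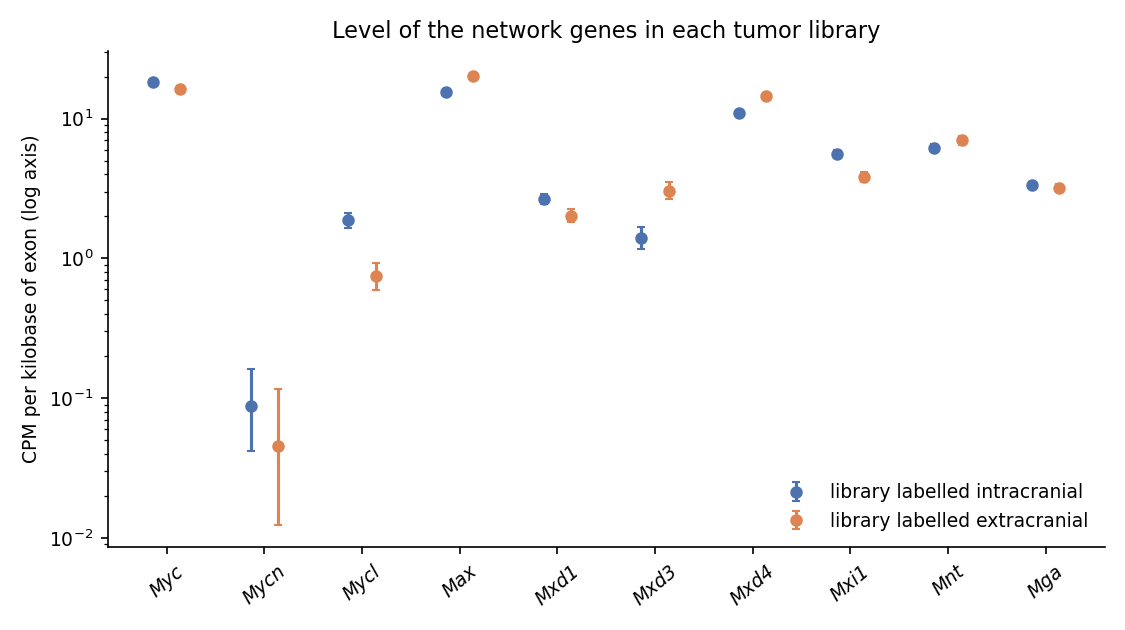
Level of each of the 10 network genes as CPM per kilobase of exon (log axis) in the intracranial library (blue) and extracranial (orange). Bars are exact 95% counting intervals with 1 library each. Myc, Max and Mxd4 lie above 10 in both libraries and Mycn lies below 0.1, with Mycl lower and Mxd3 higher in the extracranial library.

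The 4 MXD genes encode repressors that compete with MYC for MAX, and they split evenly in direction. Mxd4 (ENSMUSG00000037235, chromosome 5), a member found in resting and differentiating cells, was the most abundant of them, with 3224 and 3324 counts. Its level was 92.8 CPM (89.6 to 96.0) and 124 CPM (120.0 to 129), a 1.34-fold higher level in the extracranial library (1.28 to 1.41). Mxd3 (ENSMUSG00000021485, chromosome 13) is the member known to be expressed in proliferating cells in S phase. It had 116 and 194 counts, or 3.34 CPM (2.76 to 4.0) and 7.25 CPM (6.27 to 8.34). With a 2.17-fold higher level in the extracranial library (1.72 to 2.76), Mxd3 showed the largest increase among the members.

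Mxd1 and Mxi1 went in the other direction. Mxd1 (ENSMUSG00000001156, chromosome 6), known from differentiating keratinocytes and granulocytes, had 655 and 383 counts, or 18.9 CPM (17.4 to 20.4) and 14.3 CPM (12.9 to 15.8). It was 1.32-fold lower in the extracranial library (1.16 to 1.5). Mxi1 (ENSMUSG00000025025, chromosome 19), which is also induced by hypoxia, had 1330 and 699 counts, or 38.3 CPM (36.2 to 40.4) and 26.1 CPM (24.2 to 28.1), and was 1.47-fold lower (1.34 to 1.61). The relation of Mxd3 to Mxd1 therefore turned over: Mxd3 per kilobase was 0.529 times Mxd1 (0.430 to 0.645) in the intracranial library and 1.51 times Mxd1 (1.27 to 1.80) in the extracranial library. That of Mxd4 to Mxi1 went from 1.95 (1.83 to 2.08) to 3.82 (3.52 to 4.16), or from 3.15 to 6.18 per kilobase of the longest coding transcript.

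Cell type and growth markers also differed between the libraries, and with 2 libraries a shared direction shows no link. The keratinocyte genes were lower in the extracranial library, 10 of 10, with Krt5, Krt1 and Trp63 at 0 counts there. The 10 neutrophil genes summed to 740 and 58.7 CPM, with 6 of 7 tested genes lower and Csf3r higher (19.9 and 57.6 CPM). Most of the first sum was S100a8 (258 CPM) and S100a9 (416 CPM), and most of the second was Csf3r. Retnlg had 306 and 0 counts. Ly6g (4 and 1 counts), Ngp (9 and 0) and Elane (1 and 0) had few or no reads in either library. Proliferation genes were higher in the extracranial library, 10 of 10, with a median log2 ratio of 0.41 and a sum of 473 and 676 CPM. Set against each of these 10 genes in turn, Mxd3 was 1.27 to 1.79 times as high in the extracranial library. The odds ratio interval lay above 1 for 9 of them, among them Mki67, a marker of cycling cells (1.49, 1.17 to 1.91), and held 1 for Birc5, which encodes survivin (1.27, 0.981 to 1.64). All 10 comparisons use the same Mxd3 counts, so they are not independent of each other. The part of these cell types and of cell cycling in the levels of Mxd1, Mxi1, Mycl and Mxd3 was not tested. Of the Mxd3 exon bases, 4.4% overlap the opposite-strand gene Prelid1 (5659 and 4687 counts), and whether reads were counted by strand was not stated.

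Mnt and Mga, the large MAX partners, differed little. Mnt (ENSMUSG00000000282, chromosome 11), a widely expressed repressor that buffers MYC, had 999 and 865 counts, or 28.8 CPM (27.0 to 30.6) and 32.3 CPM (30.2 to 34.6). Its level was 1.12-fold higher in the extracranial library, with an interval (1.03 to 1.23) just above an equal level. Mga (ENSMUSG00000033943, chromosome 2) had 1786 and 1316 counts, or 51.4 CPM (49.0 to 53.8) and 49.2 CPM (46.6 to 51.9). The Mga ratio of 0.957 had an interval of 0.890 to 1.03, so that a difference was not detectable at this depth.

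**Figure D2:**
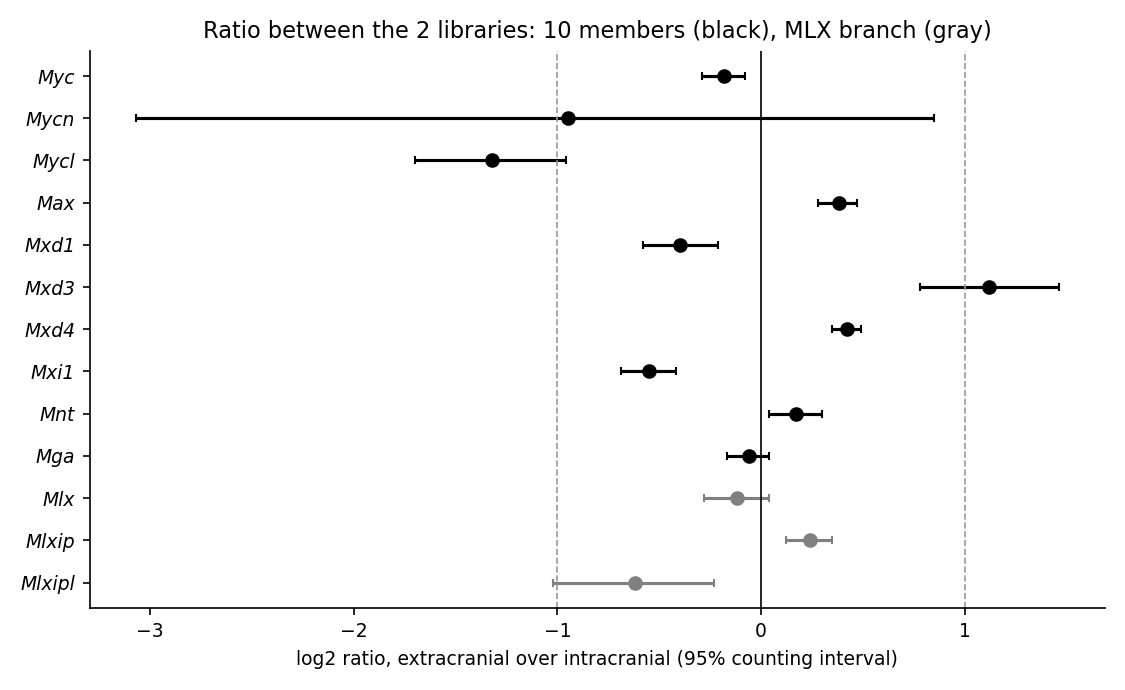
Log2 ratio extracranial over intracranial of the 10 members (black) and of 3 genes of the MLX branch (gray), with exact 95% counting intervals. The solid line marks an equal level and the dashed lines 2-fold. Mycl at -1.32 and Mxd3 at 1.12 lie beyond 2-fold, but no member's whole interval does.

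Counted over the network, 4 members were higher in the extracranial library (Max, Mxd3, Mxd4, Mnt), 4 were lower (Myc, Mycl, Mxd1, Mxi1), and for Mycn and Mga the interval held an equal level. Among all 21977 genes with 10 or more counts over both libraries, 61.4% had an interval that left out an equal level, so 8 of 10 is to be read against that share. An interval wholly beyond 2-fold was found for 0 of 10 members, against 15.6% of all genes tested (5.86% higher and 9.77% lower in the extracranial library). The members' median log2 ratio was -0.12 and their median size of difference, regardless of sign, was 0.41 on the log2 scale, against -0.04 and 0.44 for all genes tested. Among the 15582 genes with 100 or more counts, a depth that all members but Mycn reached, the median size was 0.34. In median size of difference the members were therefore near the genes at large and somewhat above the genes with 100 or more counts. The share with a ratio within 2-fold was alike, 80.0% of the members and 80.2% of the genes with 100 or more counts. The 61.4% share also includes genes with few counts, whose intervals are wide.

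The order of the members within each library was set per kilobase. In the intracranial library Myc was highest at 18.4 CPM per kilobase, followed by Max at 15.6, Mxd4 at 10.9, Mnt at 6.21, Mxi1 at 5.61, Mga at 3.35, Mxd1 at 2.67, Mycl at 1.87, Mxd3 at 1.41 and Mycn at 0.0873. Neighbors whose intervals overlapped were Mnt with Mxi1 and Mycl with Mxd3. In the extracranial library Max led at 20.2 CPM per kilobase, with Myc at 16.2, Mxd4 at 14.6, Mnt at 6.99, Mxi1 at 3.83, Mga at 3.21, Mxd3 at 3.06, Mxd1 at 2.02, Mycl at 0.750 and Mycn at 0.0454, and the intervals overlapped for Mga with Mxd3. The top of this order depended on the length used. Per kilobase of the longest coding transcript, in place of all annotated exons, Max (28.9 and 37.5) and Mxd4 (24.0 and 32.1) stood above Myc (21.4 and 18.9) in both libraries.

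The balance of activators and repressors was then expressed as a share of the summed CPM per kilobase of all 10 members. Myc, Mycl and Mycn together held 30.8% in the intracranial library and 24.0% in the extracranial library. The MXD family held 31.2% and 33.2%, Max 23.6% and 28.5%, Mnt 9.39% and 9.84%, and Mga 5.06% and 4.52%. As a share of member counts, which allows a counting interval, the MYC family took 16.7% (16 to 17.4; exact binomial) of 12073 counts and 12.7% (12 to 13.3) of 9993 counts. The lower MYC family share in the extracranial library was seen on each length scale used. Within the MXD family the make-up changed more than the total, as Mxd4 went from 16.5% to 20.6% and Mxd3 from 2.13% to 4.31% of the network while Mxi1 went from 8.48% to 5.39% and Mxd1 from 4.03% to 2.85%.

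**Figure D3:**
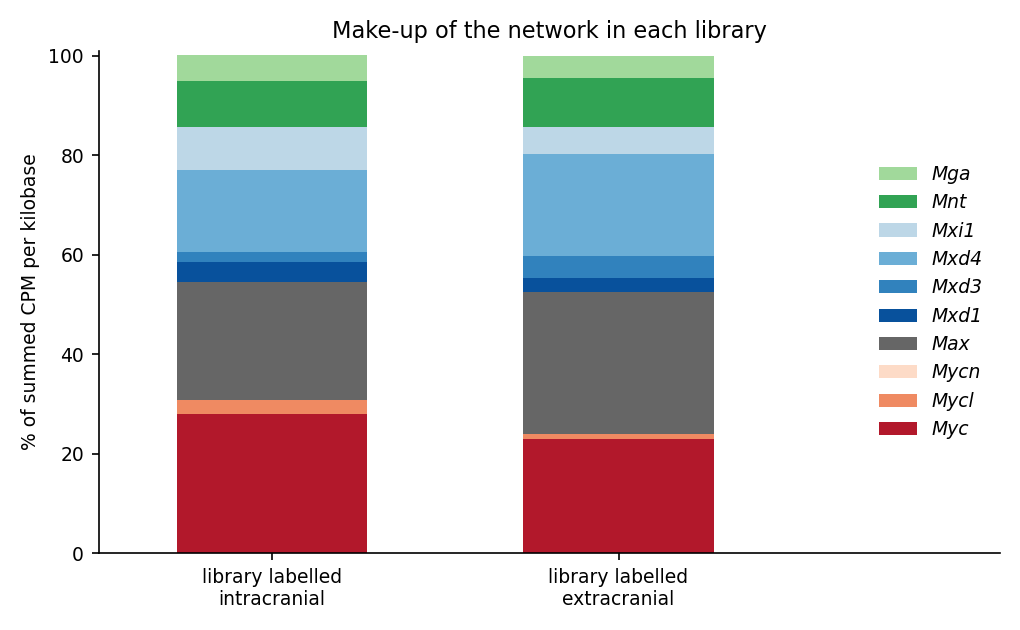
Share (%) of the summed CPM per kilobase of exon held by each of the 10 network genes in each library, from Myc at the bottom to Mga at the top. Reds are the MYC family (30.8% and 24.0%), gray is Max, blues are the MXD family (31.2% and 33.2%) and greens are Mnt and Mga; there is 1 library per bar.

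Genes that work with the network were compared next, from lists written from general knowledge with earlier results of these data known. In the parallel MLX branch, which senses glucose, the partner Mlx had 782 and 554 counts with an interval that held an equal level (log2 ratio -0.12, -0.28 to 0.04). Mlxip (MondoA) was slightly higher in the extracranial library (37.9 and 44.7 CPM) and Mlxipl (ChREBP) lower (4.72 and 3.06 CPM). Of 10 genes for SIN3 and HDAC corepressors, 0 were beyond 2-fold, against 15.6% of all genes tested. Their log2 ratios ran from -0.23 to 0.18 with a median of 0.11, and the scaffold genes Sin3a (41.8 and 45.6 CPM) and Sin3b (88.8 and 96.9 CPM) were nearly level. The histone binding subunit gene Rbbp4 was the most abundant (159 and 136 CPM). Of 14 MYC coactivators and partners, 0 were beyond 2-fold, against the same 15.6%. By the looser rule of an interval without an equal level, 9 were higher and 2 lower in the extracranial library, against 29.2% and 32.2% of all genes tested. Among the 9 were Trrap, the scaffold of histone acetyltransferase complexes (74.0 and 93.5 CPM), and the helicase gene Ruvbl1 (31.5 and 39.5 CPM). The median of this list was 0.14.

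Genes for turnover of MYC protein also had 0 of 14 beyond 2-fold, where 15.6% of all genes tested were. Fbxw7, the ubiquitin ligase subunit that marks phosphorylated MYC for degradation, was lower in the extracranial library (23.5 and 15.8 CPM, log2 ratio -0.57, -0.75 to -0.40). Aurka, a mitotic kinase that shields MYCN from that ligase, was higher (9.67 and 15.4 CPM, 0.67, 0.46 to 0.89), as was Cip2a, an inhibitor of the phosphatase that destabilizes MYC (12.1 and 16.1 CPM). Aurka is also a mitosis gene, and the proliferation list given above was higher in the extracranial library too. The part of cell cycling in the Aurka level was not tested. The most abundant genes of this list were Set (230.1 and 219 CPM) and the ubiquitin ligase gene Huwe1 (168 and 144 CPM). By the looser rule, 4 genes of this list were higher and 7 lower in the extracranial library, against 29.2% and 32.2% of all genes tested. Among the 7 were also Usp36 (log2 ratio -0.26, -0.38 to -0.13) and Usp7 (-0.09, -0.16 to -0.01). The list median was -0.08, and protein was not measured.

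The 30 MYC-induced targets did not move as a block. Of them 7 were higher in the extracranial library, 16 were lower and 7 had an interval that held an equal level, against 29.2% and 32.2% of all genes tested for higher and lower. The median log2 ratio was -0.09. Beyond 2-fold lay 2 targets (6.67%, against 15.6% of all genes tested), in opposite directions. Ccnd2, a G1 cyclin, had 4784 and 9282 counts and was higher in the extracranial library (log2 ratio 1.33, 1.28 to 1.38). Tfrc, the transferrin receptor, had 2699 and 863 counts and was lower (-1.27, -1.38 to -1.16). Ldha, which makes lactate and is also induced by hypoxia, was lower as well (727 and 386 CPM), as were the polyamine enzyme gene Odc1 (94.6 and 63.3 CPM) and Rrs1, a ribosome assembly factor (25.3 and 14.9 CPM). Cdk4 (134 and 194 CPM) and Npm1, a nucleolar chaperone (522 and 649 CPM), were higher. Nucleolin (Ncl) was close to level, at 446 and 405 CPM.

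Promoter windows were present for 24 of these targets, and 8 of them held CACGTG (33.3%, against 8.09% of all genes). Cdk4 and Ldha are shown because they held several E-boxes and differed in opposite directions between the libraries.
Cdk4, upstream-most (chr10:127063351-127063380, plus strand, 172 bases before the gene start): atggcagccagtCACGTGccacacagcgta
Cdk4, next (chr10:127063405-127063434, 118 bases before): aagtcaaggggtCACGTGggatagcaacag
Cdk4, further on (chr10:127063425-127063454, 98 bases before): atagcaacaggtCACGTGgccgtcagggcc
Cdk4, nearest the start (chr10:127063512-127063541, 11 bases before): aagggtgaagatCACGTGtccagaacgtcc
Ldha, farther (chr7:46845647-46845676, plus strand, 145 bases before): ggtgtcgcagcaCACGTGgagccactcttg
Ldha, nearer (chr7:46845744-46845773, 48 bases before): cggcccagcctaCACGTGggttcccgcacg
Such matches describe the sequence, and binding was not measured.

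Of 10 genes that MYC represses, 2 were beyond 2-fold, both lower in the extracranial library, where 9.77% of all genes tested were. With so few genes this count is near the background and is not a result about the list. Ndrg1, a stress response gene that hypoxia also induces, had 1246 and 252 counts (log2 ratio -1.93, -2.13 to -1.73). Ndrg2, a relative of Ndrg1 expressed in astrocytes and muscle, had 5407 and 1380 counts (-1.59, -1.68 to -1.51). The 10 skeletal muscle markers summed to 62.2 and 12.4 CPM, with 9 lower in the extracranial library, and their part in the Ndrg2 level was not tested. The cell cycle inhibitor genes differed among themselves: Cdkn1a (p21) was level at 324 and 324 CPM, Cdkn1b (p27) was lower in the extracranial library (69.0 and 51.1 CPM), and Cdkn2b (p15) was lower with an interval that reached inside 2-fold (9.99 and 4.6 CPM, -1.12, -1.43 to -0.82). The list median was -0.13.

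MGA acts in the Polycomb complex PRC1.6, which silences germline genes, and its partners were expressed in both tumors. All 10 partner genes were above 3 counts and 0 were beyond 2-fold, against 15.6% of all genes tested, with log2 ratios from -0.31 (Pcgf6, the subunit that defines the complex) to 0.42 (Cbx1, a heterochromatin protein). E2f6, which also guides the complex to DNA, had 35.2 and 33.7 CPM, and L3mbtl2 had 9.96 and 10.1 CPM. The 12 germline genes that this complex silences were low: 7 and 6 of them had more than 3 counts, and without Tdrkh none exceeded 21 counts. Mael and Stk31 had 0 counts in both libraries, with exact upper limits of 0.106 CPM and 0.138 CPM. The median log2 ratio of 1.07 was over the 5 genes with 10 or more counts. Tdrkh, a piRNA pathway gene, was the exception, with 229 and 370 counts (log2 ratio 1.07, 0.83 to 1.31). Ddx4, the germ cell RNA helicase, had 5 and 21 counts (2.45, 1.0 to 4.21). It was the 1 gene of 5 tested whose interval lay beyond 2-fold, narrowly (15.6% of all genes tested did), and total count scaling ended this call.

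Among the promoter windows of the 12 germline genes, 6 held CACGTG, against 8.09% of all genes. One window each of Ddx4, Taf7l and Slc25a31 and both E-boxes of Sycp3, a meiotic chromosome protein, are shown, since MGA-MAX dimers are known to act at such sites.
Ddx4 (chr13:112652322-112652351, minus strand, 29 bases before the gene start): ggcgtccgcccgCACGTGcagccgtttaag
Taf7l (chrX:134476522-134476551, minus strand, 49 bases before): accctcttatacCACGTGacagaactcgcc
Slc25a31 (chr3:40708766-40708795, plus strand, 93 bases before): cgcaactggaaaCACGTGttatggtcacat
Sycp3, farther (chr10:88459511-88459540, plus strand, 64 bases before): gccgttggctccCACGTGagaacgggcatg
Sycp3, nearer (chr10:88459532-88459561, 43 bases before): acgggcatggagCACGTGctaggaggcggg
Taf7l had 0 and 4 counts, Slc25a31 7 and 9, and Sycp3 13 and 6, so none of these 3 genes exceeded 13 counts in either library.

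**Figure D4:**
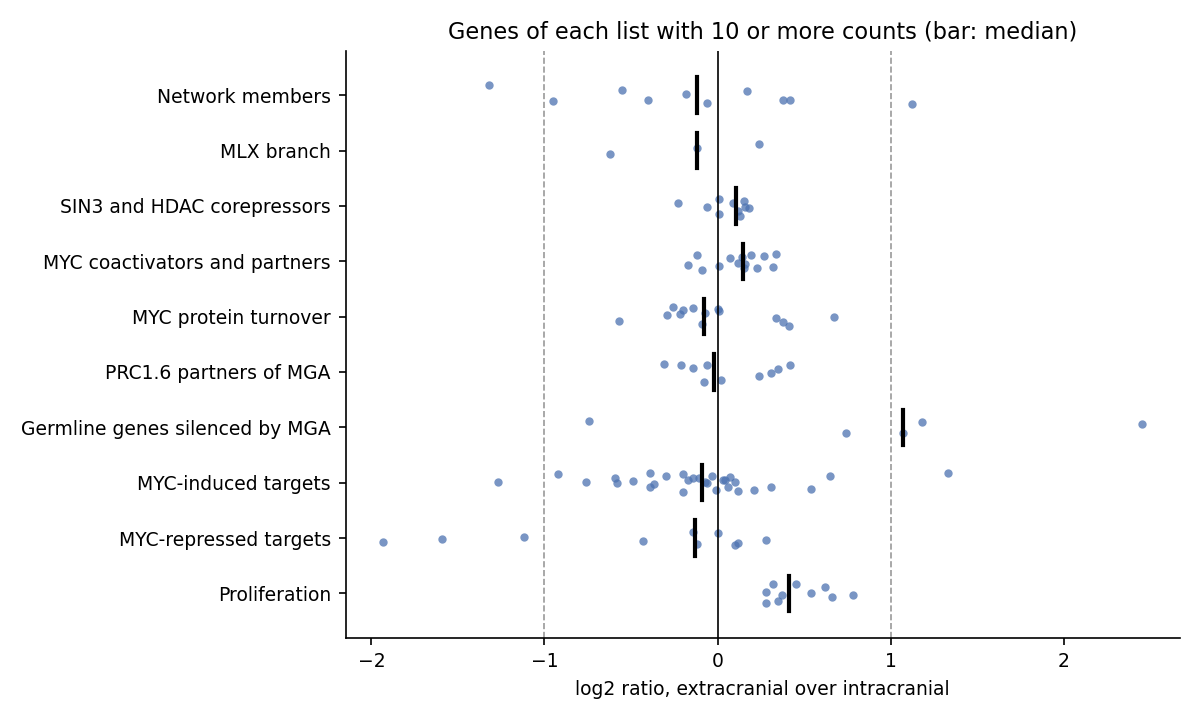
Log2 ratio extracranial over intracranial of each gene with 10 or more counts and a ratio (points, spread vertically for legibility) in the network, in 8 lists of related genes and in the proliferation list. Black bars are list medians, the solid line an equal level and the dashed lines 2-fold; cofactor lists stay within 2-fold, the medians of MYC-induced (-0.09) and MYC-repressed (-0.13) targets lie near 0, and all 10 proliferation genes lie above 0.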

How the data were processed

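Per the labels and the study's methods, the authors isolated total RNA from 2 frozen tumors, selected poly(A) RNA, prepared directional libraries, aligned single reads with STAR (2.7.9a) to GRCm39 with Ensembl annotation and tallied reads over genes with featureCounts. The deposited values are raw counts, 1 column per tumor. Strand setting and treatment of reads with several alignments were not stated.

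Symbols (52135 of 55416 genes) and exon lengths came from GENCODE release M21, an older build, and promoter sequences from RefSeq (GRCm38.p6). Promoters were searched on both strands for 3 motifs (canonical E-box, E-box variant, E2F). TMM factors of edgeR 4.0.16 were 1.006 and 0.9942. CPM and shares were given exact Clopper-Pearson 95% intervals, ratios the conditional exact binomial interval, and gene balances the conditional odds ratio. For genes with 10 or more counts over both libraries, a call needed the whole interval beyond 2-fold. For ratios, counts of 3 or fewer were set to 3. Replicate tests could not be fitted with 1 library per location. All members are named, with list genes beyond 2-fold and otherwise the most abundant or those with a known role in MYC biology, the last picked after values were seen. Members and lists were chosen with earlier results of these data known. On simulated counts, 199 of 200 genes changed 4-fold were called, and intervals held the true ratio for 95.66% of 21612 genes. This checks the calculation only and does not bear on variation between tumors, which no replicate measured. Alternatives comprised DESeq2 (1.42.0) size factors, total counts, upper quartile and protein-coding library sizes, other thresholds, an edgeR exact test in which biological variation was assumed (coefficient 0.4), and a prior count of 2.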

Additional observations from a re-analysis of the deposited data

How the results depend on the processing

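No paired analysis was possible because only 1 library stood for each location, so that no library could be left out either. The other scalings shifted every log2 ratio by -0.02 to 0.04, and the 10 member ratios kept direction and side of an equal level in all 50 recomputed values, which include a prior count of 2. Summed member levels of 347 and 373 CPM became 418 and 455 with protein-coding library sizes, by construction. Against 3434 genes beyond 2-fold, 1581 were beyond 4-fold, and 1475 passed the exact test with assumed variation (321 higher and 1154 lower in the extracranial library). Of the 10 members, 0 passed that exact test. An interval that left out an equal level was found for 13500 genes. By that last rule, calls rose from 0 to 8 for members, 2 for the MLX branch, 7 for corepressors, 11 for coactivators, 11 for turnover genes and 7 for PRC1.6 partners, from 2 to 23 for MYC-induced and 7 for MYC-repressed targets, and from 1 to 2 for germline genes, since a looser limit admits smaller ratios. Beyond 4-fold 0 genes of the last 3 lists remained, and with total counts 0 germline genes. The MYC family share of 30.8% and 24.0% per kilobase was 16.7% and 12.7% of raw counts, 32.5% and 25.1% without Mga, and 23.5% and 17.4% per kilobase of the longest coding transcript, a setting chosen after seeing the data. Depth limits Mycn and the germline genes.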

Other observations

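The promoter windows were also searched for other motifs on both strands, after the expression values were known. An E-box variant, CACGCG, was present for 2 of 9 members (Mycl and Mga) and for 12 of 24 MYC-induced targets, against 10.5% of all genes with a window. The share was also 33.3% of 9 corepressor genes, 30.8% of 13 turnover genes, 25.0% of 8 PRC1.6 partners and 23.1% of 13 coactivators. It was 16.7% of 12 germline genes, 12.5% of 8 MYC-repressed targets and 0% of 3 MLX branch genes. A share above that of all genes was thus not particular to the members or to MYC-induced targets. For CACGTG itself, found for 8.09% of all genes, the share was 66.7% of 3 MLX branch genes and 15.4% of 13 turnover genes. It was 12.5% of 8 PRC1.6 partners, 12.5% of 8 MYC-repressed targets, 11.1% of 9 corepressor genes and 7.69% of 13 coactivators. Only the coactivators lay below the share of all genes, and the lists are small. A site for E2F factors, which drive the G1 to S transition, was searched as TTTCCCGC or TTTGGCGC. It was found for 1 of 9 members, Mycn, against 1.80% of all genes. The site was also present for 25.0% of 12 germline genes, 12.5% of 8 PRC1.6 partners, 8.33% of 24 MYC-induced targets and 7.69% of 13 turnover genes. For corepressors, coactivators, MYC-repressed targets and the MLX branch the share was 0%. The Mycn window held it 2 times, although Mycn had 10 and 4 counts in these tumors. The matches lay 183 and 168 bases before the gene start and did not overlap. Mxd3, the member with the largest increase, had no such match in its window.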
